A study of Mus musculus with 20 samples.

Results

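The expression of 5 connexin genes, *Gjb2*, *Gjb6*, *Gja1*, *Gjb1* and *Gjc3*, was described in the utricle of female mice. These genes were chosen by name, as the connexins of the inner ear and of glia, from 25655 genes in the deposited tables, in which 20 connexin genes are listed. RNA was sequenced from 20 libraries in 4 groups of 5. C57BL/6J mice were sham-operated or ovariectomized (OVX) at 8 weeks of age, and their utricles were taken 4 weeks later. Every mouse carried a subcutaneous pellet. Vehicle pellets were given to the sham + v and OVX + v mice, pellets with 50 µg of estradiol for 60 days to the OVX + E2 mice, and pellets with 2.4 mg of raloxifene for 60 days to the OVX + RAL mice. Raloxifene is a selective estrogen receptor modulator. The ovariectomy was thus shared by the 3 OVX groups. The labels do not state how many mice or utricles entered a library, so that the p-values measure the spread between these libraries.

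Connexins are the proteins of gap junctions. Subunits assemble into a hexameric hemichannel in the cell membrane, and hemichannels of neighbouring cells dock through their extracellular loops into a channel that passes ions and small molecules. In the inner ear, *Gjb2* and *Gjb6* form the major channels among supporting cells and among fibrocytes of the connective tissue, and their loss causes deafness. *Gja1* is the most widely expressed connexin of the body, found for example in bone, heart and astrocytes. *Gjb1* lies in the non-compact myelin of Schwann cells, where its mutations cause a hereditary neuropathy, and also in liver. *Gjc3* is a connexin of Schwann cells and oligodendrocytes.

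The docking loop is shown because it is the feature by which the products of the 5 genes belong to 1 family. The first extracellular loop of a connexin carries 3 conserved cysteines, and the stretch of the coding sequence that holds them was read from the GENCODE transcripts on the GRCm39 genome. It spans 36 bases, 5′ to 3′, with the 3 cysteine codons in capitals.
Gjb2, chr14:57338015-57338050, minus strand: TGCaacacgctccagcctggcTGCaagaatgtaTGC
Gjb6, chr14:57362068-57362103, minus strand: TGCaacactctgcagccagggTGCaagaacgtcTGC
Gja1, chr10:56263802-56263837, plus strand: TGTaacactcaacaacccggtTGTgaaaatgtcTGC
Gjb1, chrX:100427930-100427965, plus strand: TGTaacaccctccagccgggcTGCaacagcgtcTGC
Gjc3, chr5:137956059-137956094, minus strand: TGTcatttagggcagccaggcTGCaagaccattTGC
This spacing of cysteine codons, with 6 codons between the first and the second and 3 between the second and the third, was found in 19 of the 20 connexin genes and in 459 of 21770 coding transcripts (2.11%). In the loop *Gjb2* and *Gjb6* shared 30 of 36 bases, and *Gja1* and *Gjc3* only 18. Over the aligned coding sequences, *Gjb2* and *Gjb6* were the most alike of the 10 pairs, with 76.7% identical bases (519 of 677), and *Gjb6* and *Gjc3* the least alike, with 59.4%.

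*Gjb2* (ENSMUSG00000046352) and *Gjb6* (ENSMUSG00000040055) are neighbours. In the deposited annotation of GRCm39, *Gjb2* lies on the minus strand at chr14:57336057-57342159 and *Gjb6* on the same strand at chr14:57360760-57371068, with 18600 bases between them. *Gja1* (ENSMUSG00000050953) lies on the plus strand at chr10:56253426-56278609, and *Gjb1* (ENSMUSG00000047797) on the plus strand at chrX:100419984-100429235. *Gjc3* (ENSMUSG00000056966) lies on the minus strand at chr5:137951723-137961360. The coding sequence stands in 1 exon in each of them except *Gjc3*, where it is split over 2. In the GENCODE vM39 annotation the 3′ end reaches beyond the deposited one by 2471 bases in *Gjc3*, 312 in *Gjb1*, 138 in *Gjb2*, 3 in *Gjb6* and 0 in *Gja1*. As the libraries were read from the 3′ end of mRNA, reads beyond the deposited end would not be counted, and the part of this in the levels was not tested. Antisense lncRNAs overlap *Gjb6* (*Gm32912*) and *Gja1* (*Gm68148*), and whether the counting used the strand is not given in the sources used here. In the last 400 bases of the GENCODE transcripts, *Gjb2*, *Gjb6* and *Gja1* held 338 windows of 63 bases each, and 0 of them occurred in another gene. For *Gjc3* and *Gjb1* these bases lie wholly or mostly beyond the deposited end, so that sequence shared with other genes was not checked where their reads were counted.

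The promoters of *Gjb2* and *Gjb6* are shown because both genes were abundant, lie side by side and were measured under an estrogen and an estrogen receptor modulator. They were taken from RefSeq on the GRCm38.p6 build, from 250 bases before to 50 bases after the start. Capitals mark GC boxes (GGGCGG) and single arms (GGTCA) of the palindromic estrogen response element, on either strand.
Gjb2, chr14:57104653-57104952, minus strand: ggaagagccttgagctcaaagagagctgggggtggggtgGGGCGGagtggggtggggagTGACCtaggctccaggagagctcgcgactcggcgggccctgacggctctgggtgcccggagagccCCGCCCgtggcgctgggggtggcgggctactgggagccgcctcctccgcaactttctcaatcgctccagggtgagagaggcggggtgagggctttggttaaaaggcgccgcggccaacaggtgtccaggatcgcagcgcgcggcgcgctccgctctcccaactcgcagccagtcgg
Gjb6, chr14:57133562-57133861, minus strand: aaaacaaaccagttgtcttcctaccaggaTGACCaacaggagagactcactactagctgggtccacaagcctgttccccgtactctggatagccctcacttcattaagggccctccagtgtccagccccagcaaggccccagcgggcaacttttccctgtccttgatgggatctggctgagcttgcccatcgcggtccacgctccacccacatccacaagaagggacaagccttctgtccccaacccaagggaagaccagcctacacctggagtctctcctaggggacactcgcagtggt
The *Gjb2* window was 70% G and C and held 2 GC boxes, and the *Gjb6* window was 57.3% G and C and held 0. Of 32851 promoters, 35.7% held a GC box. Each of the 2 windows held 1 single arm, and 40.5% of all promoters held at least 1. The full palindromic element, which is this arm followed after any 3 bases by its reverse complement and is present in 0.07% of promoters, was found in 0 of the 8 promoter windows listed for the 5 genes. A match describes letters in this window only.

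Levels are given in CPM, the reads of a gene scaled to the total reads counted in that library. The kit primes at the poly(A) tail, so that the number of reads does not grow with the length of the transcript. The total per library was between 1123053 and 2081747 reads, and was lowest in the OVX + E2 group (1123053 to 1507667), which also had the fewest genes with a count in a library (7427). Both of these lowest values belong to replicate 14. A gene with 3 counts, taken as detected, had 1.44 to 2.67 CPM. The 7 supporting cell markers summed to between 1172 and 4393 CPM. Most of this was *Otog* (mean 2508 CPM), while *Jag1*, *Sox2*, *Lfng*, *Tectb* and *Prox1* were at 0 in 4, 3, 2, 2 and 1 of the 20 libraries. The 5 inner ear fibrocyte markers, with *Coch* the highest (mean 5807 CPM), summed to between 6558 and 14961 CPM, and *Pou3f4* was at 0 in 1 library. The 10 Schwann cell markers summed to between 2005 and 5139 CPM, and of these *Egr2* and *Mag* were at 0 in 7 and 4 libraries. The 6 markers of central glia summed to between 0 and 28.1 CPM, nearly all from *Aqp4*, which reached 3 counts in 9 libraries and 26.7 CPM at most. *Mog*, *Opalin* and *Olig2* were at 0 in all 20 libraries. Skeletal muscle markers summed to between 0 and 314 CPM, and mucosal and keratinocyte markers to between 0 and 1793 CPM. Of the genes in these lists, *Bpifa1*, a secreted protein of the airway mucosa, was the only one past an adjusted p of 0.05. It was lower in OVX + E2 than in OVX + RAL libraries (log2 fold change -3.25, edgeR adjusted p = 8.1e-10) and higher in OVX + RAL than in sham + v libraries (2.05, edgeR adjusted p = 0.00926).

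*Gjb6* and *Gjb2* made up nearly all connexin reads that were counted in the utricle libraries. *Gjb6* averaged 676 CPM ± 200 (SD, n = 20) and *Gjb2* 592 CPM ± 182. Among 15803 genes with a count, they held ranks 162 and 184 by mean CPM. *Gjb1* averaged 17.3 CPM (rank 7777), *Gjc3* 16.4 CPM (rank 7950) and *Gja1* 3.52 CPM (rank 11995). GENCODE places the 3′ ends of *Gjc3* and *Gjb1* 2471 and 312 bases beyond the deposited ones. Reads from there would be missing from these levels and ranks and from the share that follows. Together *Gjb2* and *Gjb6* held 96.2% ± 3.8 of all connexin counts of a library, from 82.5% in replicate 14 of the OVX + E2 group to 100% in 2 libraries. *Gjb6* was above *Gjb2* in 12 of the 20 libraries, so that their order was not stable from library to library.

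*Gjb2* was detected in all 20 libraries, with 365 counts or more. Its level in sham + v libraries was 637, 431, 597, 318 and 464 CPM, with a mean of 489 ± 129 (SD, n = 5). OVX + v libraries had 494, 633, 689, 1069 and 693 CPM, with a mean of 716 ± 213. The OVX + v group was the higher one, but 2 of its libraries lay within the range of the sham + v group. OVX + E2 libraries had 934, 542, 460, 325 and 581 CPM, with a mean of 568 ± 227. OVX + RAL libraries had 726, 665, 519, 471 and 589 CPM, with a mean of 594 ± 104. The OVX + RAL libraries were the closest to each other, and all 4 groups overlapped.

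*Gjb6* was detected in all 20 libraries, with 385 counts or more. Its level in sham + v libraries was 930, 734, 443, 528 and 515 CPM, with a mean of 630 ± 200 (SD, n = 5). OVX + v libraries had 847, 607, 634, 1032 and 530 CPM, with a mean of 730 ± 206. These groups covered almost the same range. OVX + E2 libraries had 760, 668, 632, 343 and 553 CPM, with a mean of 591 ± 158. OVX + RAL libraries had 1184, 630, 731, 602 and 607 CPM, with a mean of 751 ± 248. The OVX + RAL mean rested on replicate 16, as the other 4 libraries of that group stood between 602 and 731 CPM.

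**Figure D1:**
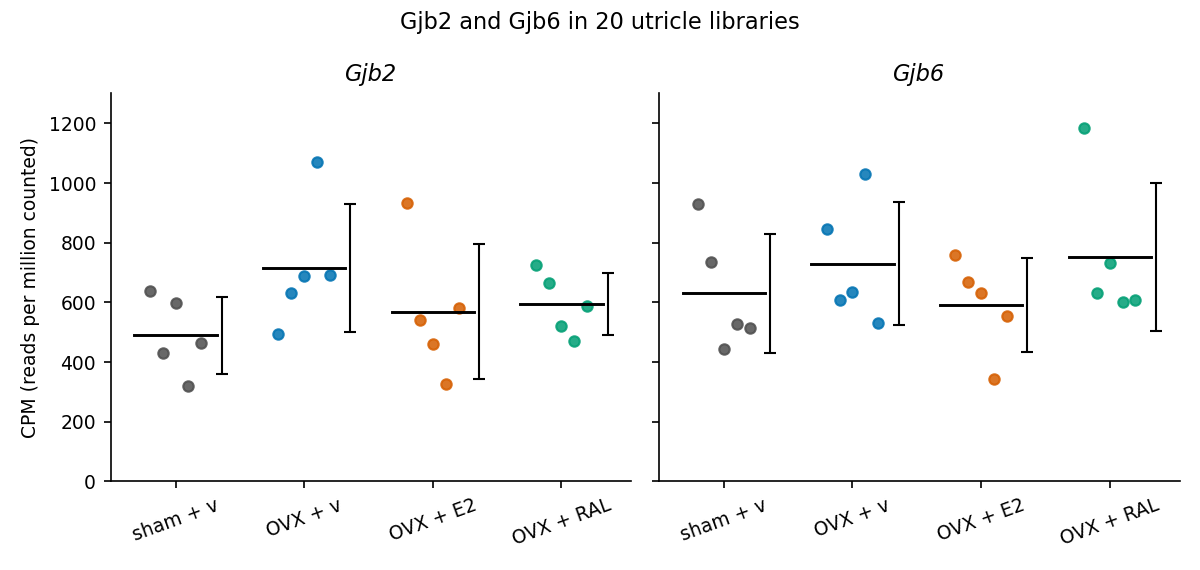
CPM of *Gjb2* and *Gjb6* (vertical axis, from 0) in each library, by group. Points are libraries, horizontal lines the means and bars the SD of 5 libraries, and the groups overlap in both genes, with OVX + v the highest mean for *Gjb2* (716) and OVX + RAL for *Gjb6* (751).

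The share of *Gjb2* in the sum of *Gjb2* and *Gjb6* reads was 44.0% ± 8.5 for sham + v, 49.5% ± 7.5 for OVX + v, 48.4% ± 5.1 for OVX + E2 and 44.8% ± 5.5 for OVX + RAL. *Gjb6* was above *Gjb2* in 4 sham + v libraries, 1 OVX + v library, 3 OVX + E2 libraries and 4 OVX + RAL libraries. The share ranged from 36.8% to 57.4% over all libraries, and both ends of this range were close to values seen in the sham + v group (37.0% to 57.4%).

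The first question of the design was what ovariectomy changed. In the sham + v group, *Gjb2* was lower than in the OVX + v group by 0.55 on the log2 scale (log2 fold change -0.55, SE 0.25, 95% interval -1.04 to -0.05), with an adjusted p of 0.363 in edgeR's quasi-likelihood test. Of the 5 connexins, 0 passed an adjusted p of 0.05, where 2 of 13825 genes did (0.0145%). The unadjusted p of *Gjb2* in edgeR was 0.0303. At an unadjusted p under 0.05, 2 of the 5 connexins passed, *Gjb2* and *Gja1*, where 12.5% of all genes did. *Gja1* was at 0 in every OVX + v library and passed the count filter only through the sham + v group, so that nothing is read from its p. DESeq2 and limma called 0 connexins after adjustment, and each had 1 connexin at an unadjusted p under 0.05, where 4.95% and 4.27% of all genes did. Which connexin this was is not reported here, and no support for *Gjb2* is read from it. Without replicate 9, the highest OVX + v library, the log2 fold change of *Gjb2* was -0.36. In that fit 0 of the 5 connexins had an unadjusted p under 0.05 in edgeR, where 1090 of 13625 genes did. Fibrocyte markers were lower in the sham + v group too, at a summed 8307 CPM ± 2674 against 10229 ± 1427. Of these markers 5 of 5 were lower, *Tbx18* with a log2 fold change of only -0.01. Other lists were lower as well, among them melanocyte markers (687 CPM ± 306 against 917 ± 328). Macrophage markers had 107 ± 75 against 135 ± 37 and skeletal muscle markers 16.4 ± 34.7 against 62.2 ± 51.7. Some lists were higher, among them supporting cell markers (3038 CPM ± 1187 against 2571 ± 586). The part of any list in the *Gjb2* result was not tested, and in whole tissue fewer cells of a type and less RNA per cell cannot be told apart.

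*Gjb6* differed less between these groups, with a log2 fold change of -0.21 (SE 0.24, 95% interval -0.69 to 0.26, edgeR adjusted p = 1.0), which was -0.05 without replicate 9. *Gjb1* and *Gjc3* had positive log2 fold changes of 1.099 and 0.65 in the sham + v group, with SEs of 2.11 and 1.48. Both intervals spanned 0 widely. Over the 4 connexins other than *Gja1* the median log2 fold change was 0.22, against -0.02 over all genes tested, with 2 values above 0 and 2 below.

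The second question was what estradiol changed after ovariectomy. Against the OVX + v group, *Gjb2* and *Gjb6* had lower values in the OVX + E2 group, with log2 fold changes of -0.33 (SE 0.26, 95% interval -0.85 to 0.18) and -0.30 (SE 0.26, 95% interval -0.81 to 0.20). The adjusted p in edgeR was 0.888 and 0.945. Without 1 library *Gjb2* ran from -0.585 (without replicate 11) to -0.142 (without replicate 9), and *Gjb6* from -0.410 to -0.146 without the same libraries. Fibrocyte markers had a summed 8848 CPM ± 1809 in the OVX + E2 group against 10229 ± 1427 in the OVX + v group, with 4 of 5 markers lower. Schwann cell markers had 4147 CPM ± 1130 against 3044 ± 615, with 9 of 10 markers higher. Skeletal muscle markers had 13.6 CPM ± 15.3 against 62.2 ± 51.7, with 3 of 4 tested markers lower. The part of these lists in the *Gjb2* and *Gjb6* values was not tested. Of the 5 connexins, 0 passed an adjusted p of 0.05, where 8 of 13695 genes did (0.0584%). At an unadjusted p under 0.05, 1 connexin passed, where 13.9% of all genes did. This was *Gja1*, again tested only through its counts in the other group. DESeq2 and limma also called 0 after adjustment, with 1 and 0 connexins at an unadjusted p under 0.05, where 5.24% and 5.46% of all genes did. Which connexin DESeq2 marked is not reported here. *Gjb1* had a log2 fold change of 2.09 (SE 1.90) and *Gjc3* one of -1.83 (SE 2.39), neither of which passed the test. Of the 4 connexins other than *Gja1*, 1 had a value above 0 and 3 below, with a median of -0.32 against -0.06 over all genes. The value of *Gjb1* rested on replicate 14, without which it was 0.37. That of *Gjc3* was -5.41 without replicate 12, the only OVX + E2 library that reached 3 counts, and between -2.15 and -1.48 without any other library.

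The third question was what raloxifene changed after ovariectomy. Against the OVX + v group, *Gjb2* had a log2 fold change of -0.27 (SE 0.25, 95% interval -0.75 to 0.22) and *Gjb6* one of 0.04 (SE 0.24, 95% interval -0.43 to 0.51). Both had an adjusted p of 1.0 in edgeR. Without replicate 9 the value of *Gjb2* was -0.08. Of the 5 connexins, 0 passed an adjusted p of 0.05, where 4 of 14002 genes did (0.0286%). At an unadjusted p under 0.05, 1 connexin passed, where 12.1% of all genes did. It was *Gja1* once more, tested through 2 OVX + RAL libraries. DESeq2 and limma called 0 connexins at either threshold, where 5.05% and 4.57% of all genes had an unadjusted p under 0.05. The sign of the *Gjb6* value turned without replicate 16, to -0.18, and also without replicate 7, 8 or 10 of the OVX + v group. *Gjb1* (0.50, SE 2.16) and *Gjc3* (-0.46, SE 1.67) stayed within their errors. Of the 4 connexins other than *Gja1*, 2 had values above 0 and 2 below, with a median of -0.11 against -0.03 over all genes. These 3 comparisons share the OVX + v libraries, so that their values are not independent.

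The agents were also set beside each other, although their doses and chemistry differ, and each was set beside the sham-operated mice. From OVX + RAL to OVX + E2 the log2 fold change of *Gjb2* was -0.06 (95% interval -0.65 to 0.52) and that of *Gjb6* -0.34 (95% interval -0.89 to 0.21). The *Gjb6* value ran from -0.45 to -0.12 without 1 library. Of the 5 connexins, 0 passed an adjusted p of 0.05 in edgeR, where 10 of 13753 genes did (0.0727%). Against the sham + v group, the OVX + E2 group had a log2 fold change of 0.22 for *Gjb2* and -0.09 for *Gjb6*, with 0 connexins past the threshold, where 0.0222% of genes passed. The OVX + RAL group had values of 0.28 and 0.25, with 0 connexins past the threshold, where 0.0648% of genes passed. Without 1 library this *Gjb6* value ran from 0.03 to 0.44. In these last 3 comparisons 0 connexins had an unadjusted p under 0.05 in edgeR, DESeq2 or limma, where 14.1%, 14.2% and 13% of genes did in edgeR, and 4.21% to 5.69% in DESeq2 and limma. By mean level, *Gjb2* was ordered OVX + v, OVX + RAL, OVX + E2 and sham + v, and *Gjb6* OVX + RAL, OVX + v, sham + v and OVX + E2. No neighbours in either order differed beyond their spread. In 0 of the 5 connexins did the CPM of the groups separate without overlap in any comparison. Among all genes tested, this occurred in 0.499%, 0.832% and 0.578% for sham + v, OVX + E2 and OVX + RAL against OVX + v, in 0.909% for OVX + E2 against OVX + RAL, and in 0.607% and 0.691% for OVX + E2 and OVX + RAL against sham + v.

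**Figure D2:**
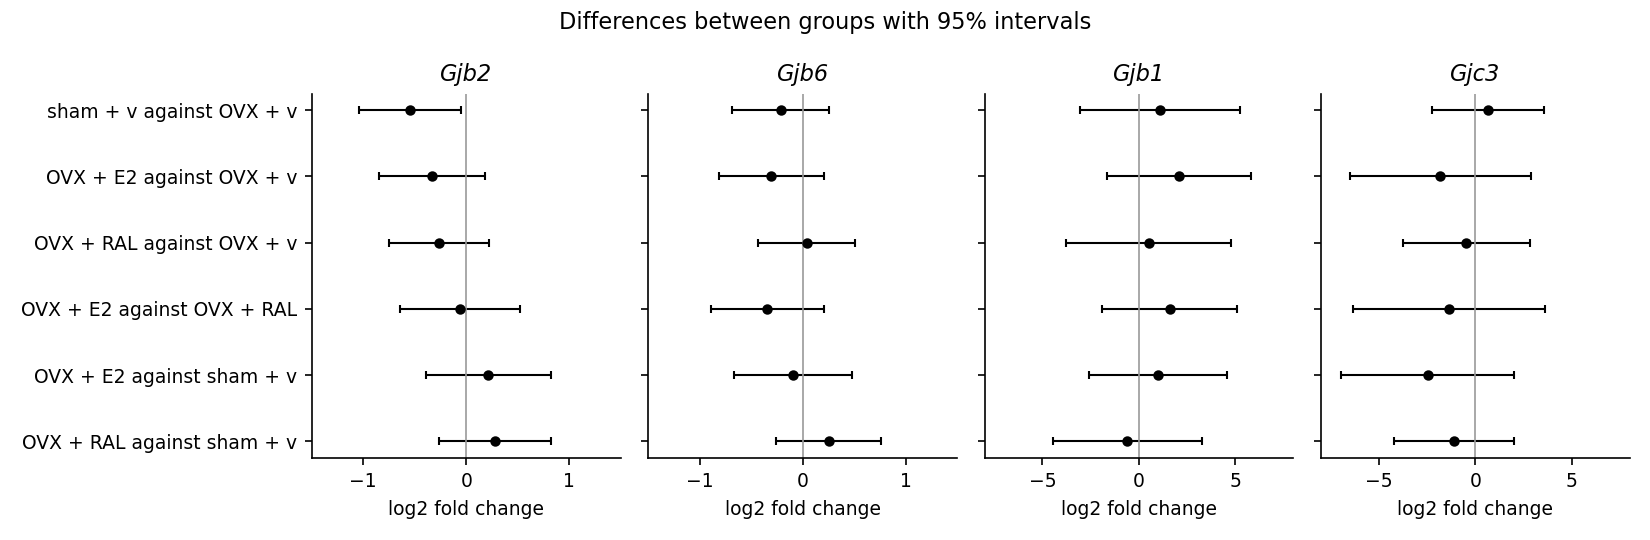
Log2 fold change (horizontal axes, narrower for *Gjb2* and *Gjb6* than for *Gjb1* and *Gjc3*) of 4 connexins in the 6 comparisons of groups (rows), as edgeR estimates with 95% intervals. The interval of *Gjb2* in sham + v against OVX + v (-1.04 to -0.05) is the only one drawn that leaves out 0, and *Gja1* is not drawn because it had 0 counts in the OVX + v group.

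*Gja1* was the rarest of the 5, with 110 counts in all 20 libraries together. The sham + v libraries had 16, 0, 21, 0 and 0 counts. The 5 OVX + v libraries had 0 counts each, which allows up to 1.49 to 2.09 CPM in a library. The OVX + E2 libraries had 9, 19, 0, 17 and 0 counts, and the OVX + RAL libraries 15, 13, 0, 0 and 0. A library thus had either no count or between 9 and 21, and each of the other 3 groups overlapped the OVX + v group at 0. No fold against the OVX + v group is read from these counts. The limits given for 0 counts cover counting error only, as reads without molecular identifiers are not independent molecules.

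*Gjb1*, the connexin of Schwann cell myelin, was detected in 14 of 20 libraries. The sham + v libraries had 52, 0, 33, 13 and 48 counts and the OVX + v libraries 21, 0, 20, 0 and 21. The OVX + E2 libraries had 22, 0, 0, 142 and 37 counts and the OVX + RAL libraries 33, 11, 0, 27 and 38. Undetected libraries occurred in every group, and the SD exceeded the mean in the OVX + E2 group (33.4 CPM ± 53.1) through replicate 14. The means of the other groups were 16.8 CPM ± 13.03 in sham + v, 7.81 ± 7.22 in OVX + v and 11.1 ± 7.8 in OVX + RAL.

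*Gjc3* was detected in 13 of 20 libraries. Its counts in sham + v libraries were 12, 103, 64, 0 and 69 and those in OVX + v libraries 23, 54, 25, 0 and 42. OVX + E2 libraries had 1, 32, 0, 0 and 1, so that 1 of the 5 libraries reached 3 counts. OVX + RAL libraries had 24, 0, 3, 67 and 36. The OVX + E2 group had the lowest mean, at 5.11 CPM ± 10.7, against 28.7 ± 24.3 in sham + v, 18.3 ± 13.5 in OVX + v and 13.3 ± 14.2 in OVX + RAL. Against the sham + v group its log2 fold change was -2.47 (SE 2.29, 95% interval -6.96 to 2.02), with an adjusted p of 1.0 in edgeR. It was -6.07 without replicate 12, and ran up to -2.11 without another library. The OVX + E2 group also had the lowest range of totals, although 1 OVX + v library lay within it. Their Schwann cell markers had the highest mean of the 4 groups, with a summed 4147 CPM ± 1130 against 3391 ± 1295 in sham + v, 3044 ± 615 in OVX + v and 2624 ± 332 in OVX + RAL.

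**Figure D3:**
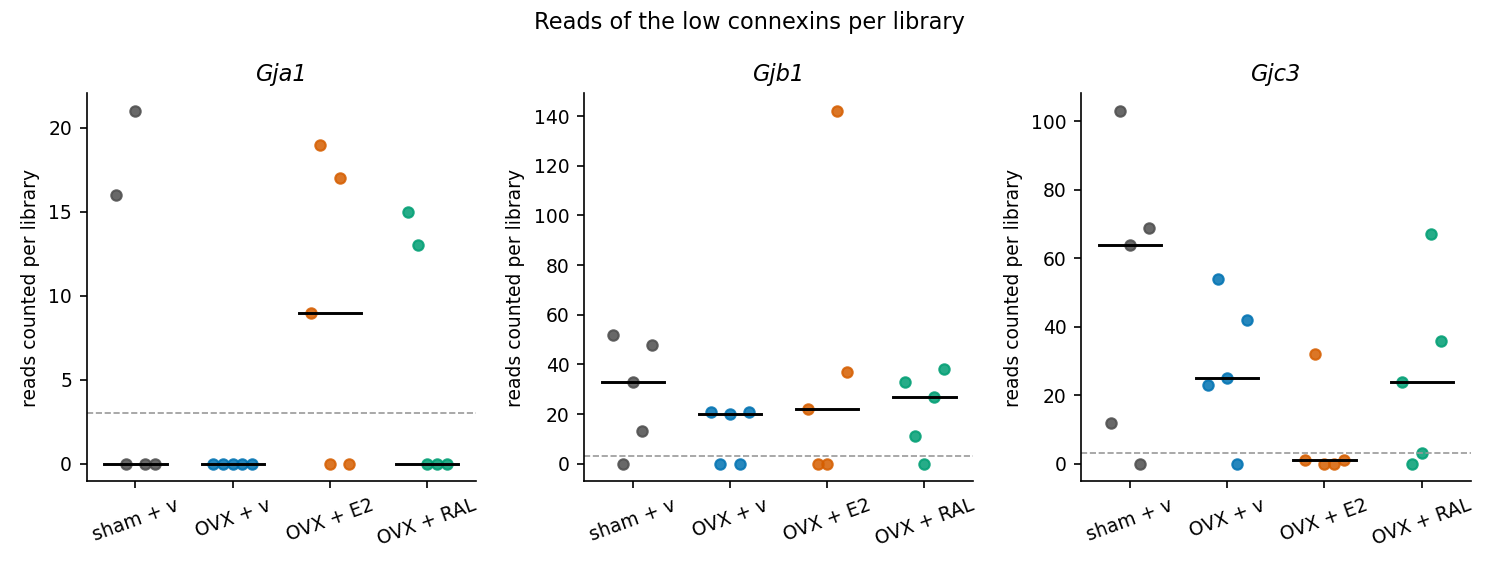
Reads counted in each library (vertical axes, a different scale for each gene) of *Gja1*, *Gjb1* and *Gjc3*, by group. Points are libraries, horizontal lines the medians and the dashed line 3 counts, and *Gja1* is at 0 in all 5 OVX + v libraries while the top points are 142 reads for *Gjb1* and 103 for *Gjc3*.

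The glial connexins were often detected in different libraries. Both *Gjb1* and *Gjc3* were detected in 9 libraries, only *Gjb1* in 5, only *Gjc3* in 4, and neither in 2. The Pearson correlation of their log2(CPM + 1) over the 20 libraries was 0.01 (permutation p = 0.972) and the Spearman correlation 0.09 (permutation p = 0.698). *Mbp*, a myelin gene among the Schwann cell markers (mean 670 CPM), was detected in all 20 libraries. The summed level of these markers had a Pearson correlation of 0.08 with *Gjb1* (permutation p = 0.746, adjusted 0.843) and 0.15 with *Gjc3* (permutation p = 0.528, adjusted 0.770). The Spearman values were 0.10 and 0.19 (permutation p = 0.661 and 0.409, adjusted 0.846 and 0.774), and Pearson's r without the 2 farthest libraries 0.04 and -0.01. Within groups r was 0.06 (permutation p = 0.841) and 0.42 (permutation p = 0.0992).

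*Gjb2* and *Gjb6*, whose products form channels together, followed each other moderately. Over the 20 libraries the Pearson correlation was 0.57 (permutation p = 0.0088, two-sided, adjusted over the 10 pairs of connexins 0.088) and the Spearman correlation 0.46 (permutation p = 0.0446, adjusted 0.35). Without the 2 libraries farthest from the median of *Gjb2* Pearson's r was 0.46, and with values centred on the mean of their group it was 0.55 (permutation p = 0.0266). With TMM-scaled library sizes it was 0.64 with an adjusted permutation p of 0.0277, and this was the only pair past 0.05 under any setting tried. Without replicate 14, the lowest library for *Gjb6*, r was 0.45 (adjusted permutation p = 0.519). The other 9 pairs had Pearson correlations between -0.37 and 0.31.

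Each of the 5 connexins was set against the summed CPM of 14 lists of cell type markers, which gave 70 relations, of which 5 had an adjusted permutation p under 0.05 for Pearson's r and 1 for Spearman's rho. The level of *Gjb6* rose with inner ear fibrocyte markers (*Coch*, *Otos*, *Pou3f4*, *Tbx18* and *Car3*) with a Pearson correlation of 0.72 (permutation p = 0.0003, adjusted 0.0105) and a Spearman correlation of 0.65 (permutation p = 0.00249, adjusted 0.0581). Pearson's r was 0.68 without the 2 farthest libraries and 0.71 within groups, and it was 0.63 with an adjusted permutation p of 0.0747 without replicate 16. *Gjb2* had a Pearson correlation of 0.60 with the same markers (permutation p = 0.0054, adjusted 0.054) and a Spearman correlation of 0.61 (permutation p = 0.00507, adjusted 0.0887), with 0.53 without the 2 farthest libraries and 0.51 within groups.

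*Gjb6* and the skeletal muscle markers had a Pearson correlation of 0.72 (permutation p = 0.00025, adjusted 0.0105) and a Spearman correlation of 0.73 (permutation p = 0.00058, adjusted 0.0406). Without the 2 farthest libraries Pearson's r was 0.63, within groups 0.68 (adjusted permutation p = 0.0588), and without replicate 16 it was 0.66 (adjusted permutation p = 0.056). The Pearson correlation of *Gjb6* was negative with Schwann cell markers, at -0.64 (permutation p = 0.00207, adjusted 0.0362), where rho was -0.47 (permutation p = 0.0376, adjusted 0.225). It was -0.64 with endothelial markers (permutation p = 0.00275, adjusted 0.0385), where rho was -0.66 (permutation p = 0.00211, adjusted 0.0581). *Gjb2* and macrophage markers had a Pearson correlation of 0.67 (permutation p = 0.00154, adjusted 0.0359) and a rho of 0.49 (permutation p = 0.0307, adjusted 0.215). Without the 2 farthest libraries these 3 values of r were -0.51, -0.56 and 0.60, and within groups -0.59, -0.65 and 0.65. Within groups 0 of the 3 stayed past the threshold (adjusted permutation p = 0.145, 0.0621 and 0.0736), and they also lost it without any 1 of 6, 8 and 5 of the 20 libraries. Among the relations of *Gjb6* past neither threshold, r was 0.60 with melanocyte markers (permutation p = 0.0047, adjusted 0.054), -0.58 with markers of vestibular dark and transitional cells (permutation p = 0.00691, adjusted 0.0605) and 0.53 with osteoblast markers (permutation p = 0.0167, adjusted 0.117). Their rho was 0.56, -0.52 and 0.54 (permutation p = 0.0114, 0.0207 and 0.0161, adjusted 0.133, 0.181 and 0.161), r without the 2 farthest libraries 0.45, -0.69 and 0.30, and r within groups 0.55, -0.65 and 0.55. With supporting cell markers *Gjb6* had an r of -0.38 (permutation p = 0.0983, adjusted 0.318) and a rho of -0.15 (permutation p = 0.53, adjusted 0.776), with -0.31 without the 2 farthest libraries and -0.36 within groups. With neuron markers r was 0.54 (permutation p = 0.0151, adjusted 0.117) and rho 0.44 (permutation p = 0.0527, adjusted 0.264), and r was 0.36 without the 2 farthest libraries and 0.75 within groups (permutation p = 0.00079).

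The 3 libraries with the highest *Gjb6* are given here, and were chosen after their values were seen. Replicate 16 of the OVX + RAL group had 1184 CPM of *Gjb6*, a summed 14961 CPM of fibrocyte markers, 2117 CPM of Schwann cell markers and 314 CPM of muscle markers. Replicate 9 of the OVX + v group had 1032 CPM of *Gjb6*, with 11788, 2005 and 84.2 CPM of the same lists. Replicate 1 of the sham + v group had 930 CPM of *Gjb6*, with 13053, 2153 and 78.4 CPM. The same 3 libraries had the lowest Schwann cell markers of the 20, and they came from 3 different groups. All of these values are shares of one library total. The part of tissue composition in the *Gjb6* level was not tested.

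**Figure D4:**
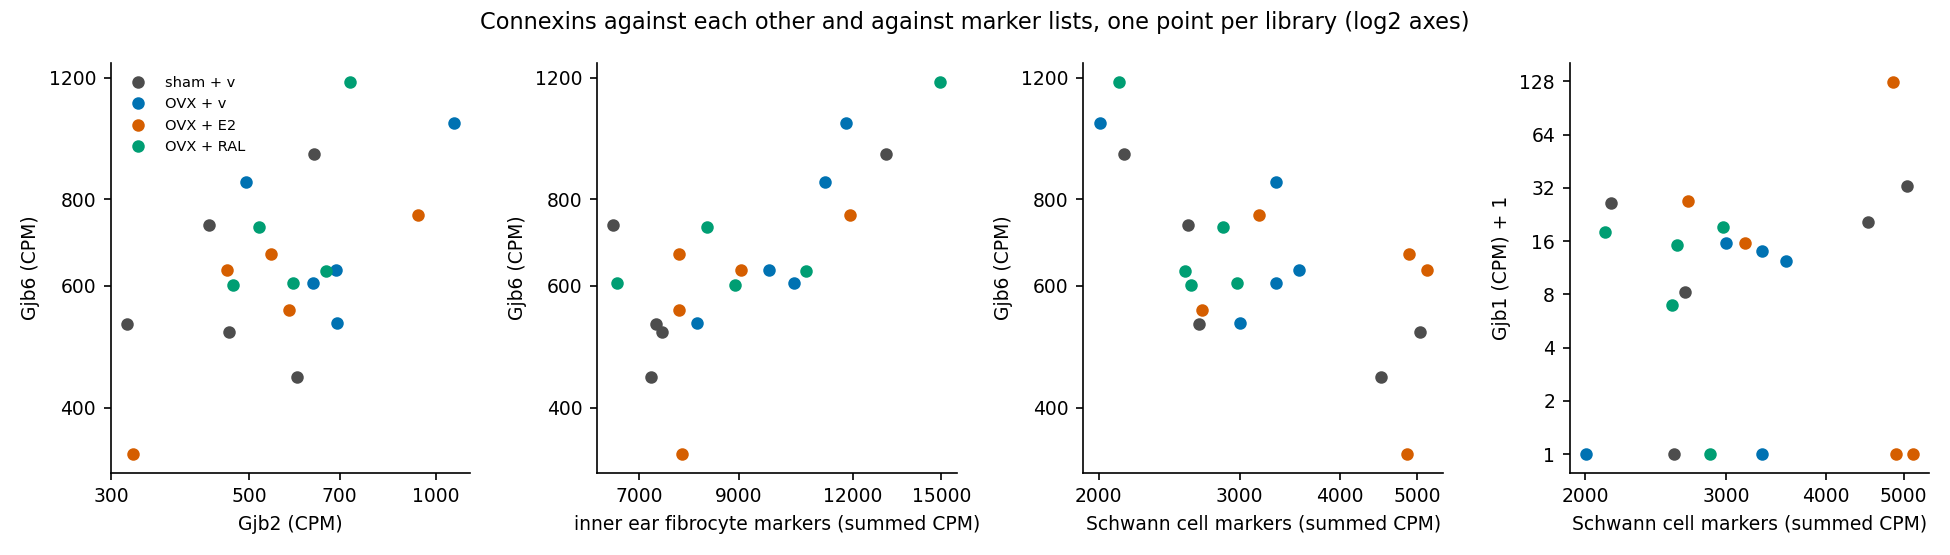
Each point is 1 of 20 libraries, coloured by group, on log2-scaled axes: *Gjb6* against *Gjb2*, against the summed CPM of fibrocyte markers and against that of Schwann cell markers, and *Gjb1* (CPM + 1) against Schwann cell markers. *Gjb6* rises with *Gjb2* (Pearson's r 0.57) and fibrocyte markers (0.72) and falls with Schwann cell markers (-0.64), while *Gjb1* shows no trend (0.08).

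Of 7261 other genes with a mean of at least 20 CPM, the 5 whose levels were ranked most like those of *Gjb6* were *Tspan6*, a tetraspanin (Spearman's rho 0.84), *Arpc5l*, a subunit of the actin-nucleating Arp complex (0.76), *Spp1*, which encodes osteopontin (0.73), *Hnrnpa2b1*, an RNA-binding protein (0.73), and *Rnf7*, a subunit of ubiquitin ligases (0.72). For *Gjb2* they were *Fbxl5*, an iron-sensing ubiquitin ligase subunit (0.80), *Sorcs3*, a sorting receptor (0.75), *Gpm6a*, a membrane glycoprotein of neurons (0.75), *Tesk1*, a protein kinase (0.75), and *Rab35*, a small GTPase (0.75). By the same measure *Gjb6* held rank 270 for *Gjb2*, and *Gjb2* rank 275 for *Gjb6* (rho 0.46). Each connexin thus had more than 200 genes ranked closer to it than the other, but the number expected by chance was not worked out. *Fbxl5*, *Tesk1*, *Rab35* and *Arpc5l* were at 0 CPM in at least 1 library, and the Pearson correlation of *Arpc5l* with *Gjb6* was only 0.46. No co-expression is read from these ranks. These values are a description over 20 libraries that share their totals, and *Gjb1*, *Gjc3* and *Gja1* were not ranked because fewer than 15 libraries held 3 counts of them.

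The rest of the family had few counts, and the deposited 3′ ends of these genes were not compared with GENCODE. Of the 15 other connexin genes, 10 had no count in any library, 1 (*Gje1*) had 2 counts at most, and 4 reached 3 counts in some library. *Gja4*, a connexin of vessel walls, reached 3 counts in 5 libraries with a top level of 26.7 CPM, and *Gjc1*, which is known from smooth muscle and the cardiac conduction system, in 6 libraries with a top level of 20.6 CPM. *Gja5*, a connexin of arteries and of the heart, reached 12.3 CPM in 1 library. The pannexins, channel proteins that share the membrane topology of connexins but not their sequence, were low as well. *Panx1* averaged 11.2 CPM and reached 3 counts in 9 libraries, *Panx2* 9.69 CPM in 11 libraries, and *Panx3* 1.11 CPM in 2 libraries. A comparison tested 2 or 3 of the 15 other connexins and 2 or 3 of the 3 pannexins, and 0 of them passed an adjusted p of 0.05 in edgeR, where 0.0145% to 0.0727% of all genes did. In the order of the plotted comparisons, 1, 1, 2, 0, 0 and 1 connexins and 1, 0, 1, 1, 1 and 0 pannexins had an unadjusted p under 0.05 in edgeR, where 12.1% to 14.2% of all genes did. Each of these was *Gja4*, *Gja5* or *Panx3* set against a group with 0 counts of it, so that nothing is read from these p-values.

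Genes of proteins known to bind or anchor gap junctions, here 8 partners, summed to 1263 CPM ± 176 in sham + v, 1290 ± 132 in OVX + v, 1489 ± 180 in OVX + E2 and 1398 ± 220 in OVX + RAL. The highest were *Ctnnb1*, which encodes β-catenin of adherens junctions (757 CPM ± 183, n = 20), and *Cdh1*, which encodes E-cadherin (238 ± 89). Of the 8 partners, 0 rose and 0 fell past an adjusted p of 0.05 in any of the 6 comparisons in edgeR, where 0.0145% to 0.0727% of all genes did, so that a count of 0 was near the background. At an unadjusted p under 0.05 in edgeR, 2 partners passed in OVX + E2 against sham + v, where 14.2% of all genes did, and 0 in the other comparisons, where 12.1% to 14.1% did. In OVX + E2 against sham + v, 2 partners were higher and 6 lower, with a median log2 fold change of -0.17. The higher sum in OVX + E2 came with *Ctnnb1*, which averaged 939 CPM there and 638 in sham + v. Against the OVX + v group their median log2 fold change was 0.02 in sham + v, -0.21 in OVX + E2 and 0.14 in OVX + RAL, beside medians of -0.02, -0.06 and -0.03 over all genes.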

How the data were processed

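Utricle RNA of 20 mouse libraries was read for 75 cycles after a 3′ mRNA kit with 1 ng of total RNA. As the paper describes, the authors trimmed 12 bases from the 5′ end, discarded reads under 20 bases, and mapped and counted reads on GRCm39 in CLC Genomics Workbench (version not given in the sources used here). The deposited counts are raw whole-number reads per gene, without normalization. The deposited tables also hold CPM, other normalized values and the authors' comparisons (fold changes and p-values), which were not used. The OVX + v counts were identical in the 3 deposited tables, and 0 of 40 replicate pairs had identical counts.

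Replicates are named by the numbers in the labels. CPM was calculated from library totals. Groups were compared pairwise with edgeR 4.0.16 (R 4.3.3), by the quasi-likelihood test with the total count as library size, keeping genes whose counts summed to 10 or more over both groups together, with Benjamini-Hochberg adjustment over all genes. SEs are the log2 fold change over the root of F. DESeq2 1.42.0, limma 3.58.1 on log2(CPM + 1) and log2(CPM + 0.1), TMM, other filters, a robust fit, 1 fit of 4 groups and leaving out each library were alternatives. The pipeline was tested on simulated data. Correlations used log2(CPM + 1) and 100000 two-sided permutations (Python 3.11.15, scipy 1.17.1). The genes named are the connexins and pannexins with 3 counts or more in some library, the 3 most abundant genes of other lists and any past the threshold (some are not reported here), and the 5 genes with the highest rho among those with a mean of at least 20 CPM. The members and lists were chosen with earlier results of these data known, and the relations to cell type lists after the data were seen. Sequences came from GENCODE vM39 and RefSeq.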

Additional observations from a re-analysis of the deposited data

Results flagged for a closer look

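There were 23 sets of 5 values (the 5 connexins and the *Gjb2* share in each group, without *Gja1* in OVX + v). Of these, 3 held a library whose gap to its nearest neighbour was large against the range of the group. For normally distributed, independent values about 1 set in 20 would be marked, which is about 1.2. Sets of the low connexins hold many values at or near 0, and the share is built from *Gjb2* and *Gjb6*. The 3 sets are therefore not read as an excess. *Gjb6* was at 1184 CPM in replicate 16 of the OVX + RAL group, while the other 4 libraries stood between 602 and 731 CPM. *Gjb1* was at 126.4 CPM in replicate 14 of the OVX + E2 group, while the other 4 libraries stood between 0 and 26.0 CPM. Of all 20 libraries, replicate 14 had the fewest reads (1123053) and the fewest genes with a count (7427). It also had the lowest *Gjb6* (343 CPM) and the lowest share of *Gjb2* and *Gjb6* in the connexin counts (82.5%). *Gjc3* was at 24.17 CPM in replicate 12 of the OVX + E2 group, while the other 4 stood between 0 and 0.701 CPM. Replicate 16 also held the highest sums of fibrocyte and skeletal muscle markers. The part of these in its *Gjb6* level was not tested.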

How the results depend on the processing

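No connexin passed an adjusted p of 0.05 in any comparison under any of the alternatives tried or without any library. Under the other alternatives 229 log2 fold changes, those of *Gja1* against the OVX + v group at 0 counts included, kept their direction and 3 reversed. These were *Gjb1* in OVX + E2 against sham + v, at -0.29 and -0.92 in limma with a pseudocount of 1 and 0.1, and in OVX + E2 against OVX + RAL, at -0.495 in limma with a pseudocount of 0.1. Without 1 library, 287, again with those of *Gja1*, kept their direction and 13 reversed, and the ranges of those results are as follows. *Gjb2* ran from -0.317 to 0.0829 in OVX + E2 against OVX + RAL and from -0.0366 to 0.363 in OVX + E2 against sham + v. *Gjb6* ran from -0.18 to 0.20 in OVX + RAL against OVX + v and from -0.198 to 0.0917 in OVX + E2 against sham + v. *Gjb1* ran from -0.12 to 1.91 in OVX + E2 against OVX + RAL and from -0.72 to 1.35 in OVX + E2 against sham + v, and *Gja1* from -1.18 to 0.58 in OVX + RAL against sham + v. The number of correlated pairs of connexins rose from 0 to 1 with TMM-scaled library sizes. Of the pairs, *Gjb2* and *Gjc3* reversed to 0.0535 with a pseudocount of 0.1 and to 0.0252 with TMM, *Gjb6* and *Gjc3* to 0.0593 and 0.0316, and within groups *Gjb6* and *Gja1* to 0.0856 and *Gja1* and *Gjc3* to 0.0497. Without 1 library the correlation ran from -0.00634 to 0.308 for *Gjb2* and *Gja1*, -0.243 to 0.0444 for *Gjb2* and *Gjb1*, -0.18 to 0.17 for *Gjb2* and *Gjc3*, -0.23 to 0.19 for *Gjb6* and *Gja1*, -0.21 to 0.12 for *Gjb6* and *Gjc3*, -0.227 to 0.0042 for *Gja1* and *Gjc3* and -0.10 to 0.16 for *Gjb1* and *Gjc3*. The causes were not tested.

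Of the 5 relations between connexins and cell type markers, examined after seeing the data, 0 reversed. *Gjb6* and fibrocyte markers, and *Gjb6* and muscle markers, lost the threshold only without replicate 16 and, for muscle, within groups. *Gjb6* with Schwann cell and endothelial markers and *Gjb2* with macrophage markers lost it within groups and without some single libraries, endothelial markers also with TMM (adjusted permutation p 0.0751). No paired analysis was possible because the labels number the libraries 1 to 20 without shared numbers. With 5 libraries a group and 110 to 556 reads in all for *Gja1*, *Gjb1* and *Gjc3*, differences of several-fold were within their intervals, and for *Gjb2* and *Gjb6* the intervals were about 1 log2 unit wide.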
